A study of Homo sapiens with 3 samples.

Results

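YAP and TAZ, the paired transcriptional coactivators of the Hippo pathway, were examined together with their DNA-binding partners and a set of their target genes. The 10 genes were taken by symbol from the 58735 genes of the deposited expression table: YAP1 and WWTR1 (the gene of TAZ), TEAD1 and TEAD4, and CYR61, CTGF, ANKRD1, AMOTL2, LATS2 and AJUBA. CYR61 and CTGF are the symbols in the table for the genes now called CCN1 and CCN2. RNA sequencing had been done on 3 libraries labelled HCT116, a human colorectal carcinoma line, with 1 library per group: ZEB1 K80R overexpression, wild-type ZEB1 overexpression, and empty vector control. K80R replaces a lysine of ZEB1, a zinc-finger factor that drives epithelial-mesenchymal transition, by an arginine, and all 3 cultures were labelled as receiving the control treatment. The labels do not say whether an overexpression line was a clone or a pool, and the medium was DMEM with serum in every group.

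In the Hippo pathway the kinases STK3 and STK4 (MST) activate LATS1 and LATS2, which phosphorylate YAP and TAZ and so keep them out of the nucleus. Where this phosphorylation is low, YAP and TAZ enter the nucleus and bind TEAD factors, which carry them to DNA, and genes such as CYR61, CTGF and ANKRD1 are then transcribed. AMOTL2 and LATS2 are themselves targets that restrain YAP and TAZ, a negative feedback, and AJUBA is a LIM protein that binds and inhibits LATS kinases. ZEB1 has been described as a partner of YAP1 that activates genes together with it, which makes the pathway a question in cells that overexpress ZEB1. The level of an mRNA does not report where the YAP or TAZ protein is or whether it is phosphorylated.

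TEAD factors recognise the letters GGAATG, and the promoters of CTGF and ANKRD1 are shown because both are textbook targets that hold several copies of these letters, while their mRNA levels compared differently between the libraries. They run over the 250 bases before the RefSeq start (build GRCh38.p14, minus strand), from chr6:131951373-131951622 for CTGF and from chr10:90921088-90921337 for ANKRD1, 5′ to 3′ on the strand of the gene, with GGAATG in capitals.
CTGF: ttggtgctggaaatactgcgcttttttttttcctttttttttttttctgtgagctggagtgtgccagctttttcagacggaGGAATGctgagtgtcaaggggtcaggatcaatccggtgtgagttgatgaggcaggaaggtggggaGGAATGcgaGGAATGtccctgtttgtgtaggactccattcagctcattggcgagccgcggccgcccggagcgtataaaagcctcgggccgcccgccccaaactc
ANKRD1: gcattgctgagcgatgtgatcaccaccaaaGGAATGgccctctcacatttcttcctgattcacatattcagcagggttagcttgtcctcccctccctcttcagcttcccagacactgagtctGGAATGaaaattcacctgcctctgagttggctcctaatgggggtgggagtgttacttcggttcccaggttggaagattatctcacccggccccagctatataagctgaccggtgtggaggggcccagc

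CTGF held 3 matches in this stretch, which begin at positions −169, −104 and −95 relative to the start, and ANKRD1 held 2, at −220 and −128. The search covered both strands of windows of 300 bases, 250 before and 50 after each start, and no other motif was searched. Of all 35116 RefSeq windows 14% held at least 1 match, 1.37% at least 2 and 0.128% at least 3. RefSeq windows were found for 7 of the 10 genes, 6 of them with a match in at least 1 window. YAP1, AMOTL2, AJUBA and LATS2 had 1 match each, shown as 30 bases with the match in capitals, on the strand of the gene, where CATTCC is GGAATG on the other strand.
YAP1 (chr11:102110273-102110302, plus strand): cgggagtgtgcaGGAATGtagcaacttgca
AMOTL2 (chr3:134374499-134374528, minus strand): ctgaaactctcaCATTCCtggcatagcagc
AJUBA (chr14:22976884-22976913, minus strand): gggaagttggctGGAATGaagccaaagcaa
LATS2 (chr13:21061560-21061589, minus strand): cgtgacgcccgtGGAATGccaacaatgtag

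The LATS2 match lay 10 bases after the start, and those of AMOTL2 and AJUBA lay in the second of their 2 annotated starts. WWTR1 had 2 windows and no match in either. Windows for CYR61, TEAD1 and TEAD4 were not used here. A match is a run of letters and no evidence that a factor binds there.

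**Figure D1:**
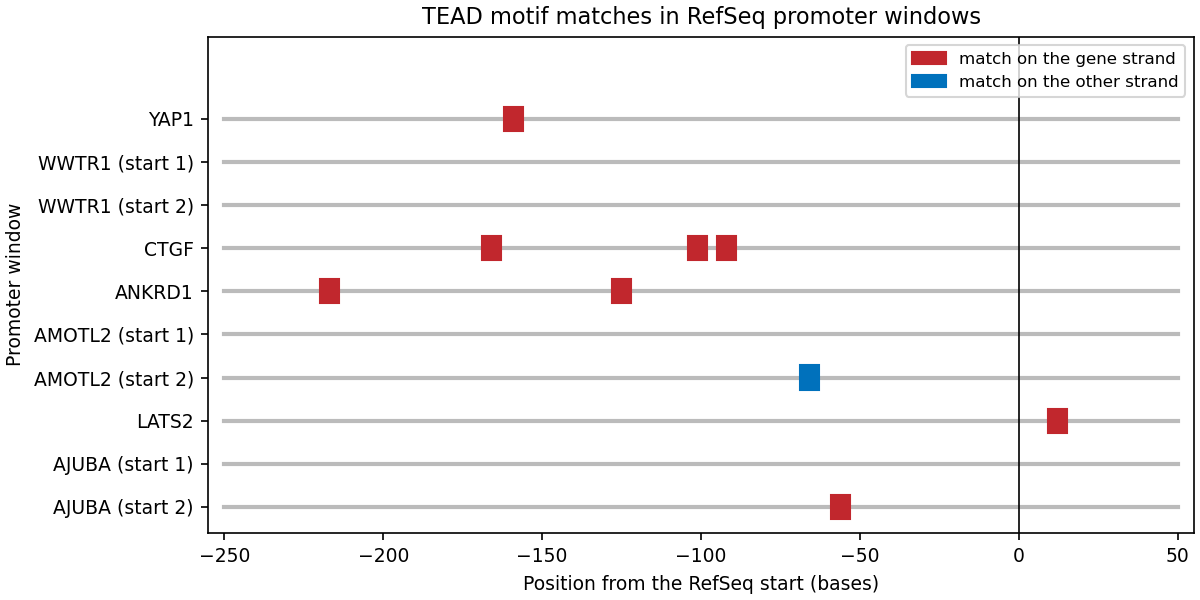
Positions of GGAATG, on either strand, in the RefSeq promoter windows of 7 of the 10 genes, in bases from the annotated start (x axis); each grey line is 1 window of 250 bases before and 50 after a start. CTGF holds 3 matches and ANKRD1 holds 2, while the windows of WWTR1 hold none.

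Levels are given as FPKM, in which reads are divided by the length of the gene and by the size of the library. The FPKM of all genes summed to 303683 in ZEB1 K80R, 307544 in wild-type ZEB1 and 223875 in empty vector. Comparisons with the empty vector library therefore depend on the scaling, and some are also given at a common sum of FPKM, which sets these sums equal. Ranges in brackets are 95% exact intervals computed from the reads behind the FPKM. Only counting error enters them, PCR copies of a molecule counting as separate reads, and with 1 library per group there is no spread between cultures to hold a difference against. The libraries held 13479517 reads for ZEB1 K80R, 14322537 for wild-type ZEB1 and 14764535 for empty vector, and ZEB1 itself stood at 10.3, 9.83 and 5.66 FPKM in that order. Mitochondrial genes took 9.75% and 7.77% of the reads in the ZEB1 K80R and wild-type ZEB1 libraries and 1.29% in the empty vector library, and 2902 and 2705 genes had exactly 1 read in the first pair against 350 in the empty vector library. Of 10 colon epithelial markers, 6 had 0 reads in all 3 libraries (EPCAM, CDH1, CDX1, CDX2, VIL1 and KRT20), and of the rest only KRT8 and KRT18 reached a mean of 1 FPKM, so these markers do not bear out the identity given by the labels. The 10 markers summed to 89.9 FPKM in ZEB1 K80R, 102 in wild-type ZEB1 and 92.7 in empty vector. The 13 markers of other cells summed to 58.2 FPKM in ZEB1 K80R, 55.2 in wild-type ZEB1 and 78.9 in empty vector, mostly from NEFL, with PTPRC and CD3E at 0. The 10 Hippo genes took 0.24% of the reads in ZEB1 K80R, 0.237% in wild-type ZEB1 and 0.236% in empty vector. How far these differences between libraries enter the results below was not tested.

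The coactivators were both lower in the ZEB1 libraries than in the empty vector library, by less than 1.5-fold in the deposited values. At a common sum of FPKM they were lower by more, and there the median gene was lower too. YAP1 (ENSG00000137693; chromosome 11, 102110461 to 102233423) had 24.6 FPKM in ZEB1 K80R, 23.4 in wild-type ZEB1 and 28.1 in empty vector. WWTR1 (ENSG00000018408; chromosome 3, 149517235 to 149736714) had 52.4 FPKM in ZEB1 K80R, 55.3 in wild-type ZEB1 and 67.7 in empty vector. The empty vector library was thus the highest for both genes, and the ZEB1 libraries lay close to each other.

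The ratio of YAP1 to empty vector was 0.874 (0.825 to 0.926) for ZEB1 K80R and 0.831 (0.784 to 0.880) for wild-type ZEB1. The ratio of WWTR1 to empty vector was 0.775 (0.750 to 0.801) for ZEB1 K80R and 0.817 (0.791 to 0.844) for wild-type ZEB1. Scaled to a common sum of FPKM, as FPKM + 1, the ratios were 0.647 and 0.608 for YAP1 and 0.573 and 0.596 for WWTR1 in the same order, a scaling that moved the median difference of all genes on the log2 scale to −0.39 and −0.40. Relative to the median gene at that scaling, YAP1 differed by −0.24 and −0.32 and WWTR1 by −0.42 and −0.35 on the log2 scale. At a common sum without mitochondrial genes the ratios were 0.923 and 0.789 for YAP1 and 0.819 and 0.775 for WWTR1. These comparisons share the empty vector library, so they are not separate pieces of evidence. Over the 10372 protein-coding genes with a mean of at least 1 FPKM, 20.7% had a difference of log2(FPKM + 1) from empty vector as low as that of WWTR1 in ZEB1 K80R, and 23.2% in wild-type ZEB1. In bulk RNA, fewer cells that express a gene and less of its RNA per cell cannot be told apart.

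Between the ZEB1 libraries the coactivators moved little and in opposite senses. The ratio of ZEB1 K80R to wild-type ZEB1 was 1.05 (0.989 to 1.12) for YAP1 and 0.948 (0.915 to 0.983) for WWTR1, which lay above 1 when scaled to a common sum without mitochondrial genes. TAZ mRNA was more abundant than YAP mRNA in every library, by 2.13 times (2.03 to 2.24) in ZEB1 K80R, 2.37 times (2.25 to 2.49) in wild-type ZEB1 and 2.41 times (2.31 to 2.51) in empty vector. YAP1 and WWTR1 together came to 77.0 FPKM in ZEB1 K80R, 78.7 in wild-type ZEB1 and 95.8 in empty vector. The excess of TAZ over YAP was therefore smallest in the ZEB1 K80R library, and its interval did not meet those of the other libraries.

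**Figure D2:**
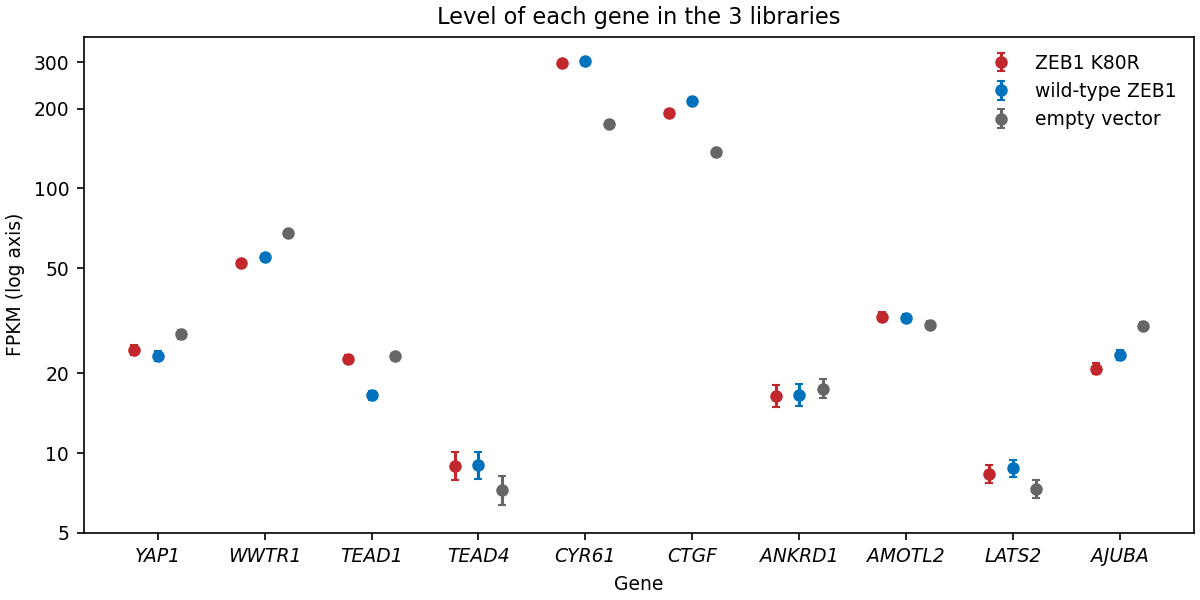
Level of each of the 10 genes (x axis) as FPKM on a log axis (y axis) in the ZEB1 K80R, wild-type ZEB1 and empty vector libraries, 1 library each; bars are exact 95% Poisson counting intervals, which for many points are smaller than the marker. CYR61 and CTGF are the most abundant and stand higher in both ZEB1 libraries, YAP1, WWTR1 and AJUBA stand lower there, and TEAD1 is low in wild-type ZEB1 alone.

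TEAD1, the TEAD factor with the highest mRNA level here, was the gene of the 10 that separated the ZEB1 libraries most. TEAD1 (ENSG00000187079; chromosome 11, 12674591 to 12944483) had 22.7 FPKM in ZEB1 K80R, 16.5 in wild-type ZEB1 and 23.2 in empty vector. ZEB1 K80R and empty vector lay close together and wild-type ZEB1 below both. The ratio of ZEB1 K80R to wild-type ZEB1 was 1.37 (1.30 to 1.45), that of wild-type ZEB1 to empty vector 0.712 (0.676 to 0.750) and that of ZEB1 K80R to empty vector 0.979 (0.934 to 1.03), the last above 1 when libraries were scaled to a common sum without mitochondrial genes.

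A difference as high as that of TEAD1 between ZEB1 K80R and wild-type ZEB1 was seen for 4.32% of the 10372 genes. Longer genes were in general somewhat higher in ZEB1 K80R than in wild-type ZEB1: the median difference of log2(FPKM + 1) was 0.11 over the 2593 longest genes, from 7570 bases, and −0.22 over the 2594 shortest, up to 3339 bases. TEAD1, at 10279 bases, belongs to the longest genes, 7.21% of which had a difference as high. The part of length in the TEAD1 difference was not tested.

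TEAD4 (ENSG00000197905; chromosome 12, 2959330 to 3040673) was less abundant and had another pattern. It had 8.95 FPKM in ZEB1 K80R, 9.0 in wild-type ZEB1 and 7.23 in empty vector, from 271, 282 and 261 reads. Set over empty vector, TEAD4 had a ratio of 1.24 for both ZEB1 K80R (1.04 to 1.47) and wild-type ZEB1 (1.05 to 1.48), and it was below 1 in both at a common sum of FPKM (TPM). Relative to the median gene at that scaling, TEAD4 was still higher by 0.26 in both ZEB1 libraries on the log2 scale. Between ZEB1 K80R and wild-type ZEB1 the ratio was 0.995 (0.839 to 1.18).

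Of the other TEAD genes, TEAD3 stood at 6.38 FPKM in ZEB1 K80R, 6.0 in wild-type ZEB1 and 3.82 in empty vector, and TEAD2 at 2.04, 2.16 and 2.09 in that order. The 4 TEAD genes summed to 40.1 FPKM in ZEB1 K80R, 33.7 in wild-type ZEB1 and 36.3 in empty vector. TEAD1 exceeded TEAD4 by 2.54 times (2.24 to 2.88) in ZEB1 K80R, 1.84 times (1.62 to 2.09) in wild-type ZEB1 and 3.21 times (2.83 to 3.65) in empty vector. It made up 56.7% of that sum in ZEB1 K80R, 49.1% in wild-type ZEB1 and 63.8% in empty vector. TEAD1 belongs to the longest genes, and TEAD2, TEAD3 and TEAD4 to the shortest, whose medians differed between the ZEB1 libraries as given above. The part of length in this ratio and this share was not tested.

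The secreted matricellular proteins CYR61 and CTGF were the most abundant of the 10 genes and the only ones to reach 1.5-fold in any comparison of the deposited values. CYR61 (ENSG00000142871; chromosome 1, 85580761 to 85583962) had 297 FPKM in ZEB1 K80R, 302 in wild-type ZEB1 and 176 in empty vector. By level it ranked 62 and 74 among the 10372 protein-coding genes in the ZEB1 K80R and wild-type ZEB1 libraries and 145 in the empty vector library. Both ZEB1 libraries stood clear of the empty vector library and at nearly the same level as each other.

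The ratio of CYR61 to empty vector was 1.69 (1.64 to 1.74) for ZEB1 K80R and 1.72 (1.67 to 1.77) for wild-type ZEB1, and the ratio of ZEB1 K80R to wild-type ZEB1 was 0.984 (0.957 to 1.01). Differences as high as these from empty vector were seen for 5.43% of the 10372 genes in ZEB1 K80R and 6.56% in wild-type ZEB1. ZEB1, the introduced gene, had ratios to empty vector of 1.82 (1.66 to 2.0) for ZEB1 K80R and 1.74 (1.58 to 1.90) for wild-type ZEB1. Of the 10372 genes, 5.30% in ZEB1 K80R and 8.48% in wild-type ZEB1 had a difference as high as that of ZEB1.

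CTGF (ENSG00000118523; chromosome 6, 131948176 to 131951373), whose promoter with 3 matches is printed above, had 193 FPKM in ZEB1 K80R, 214 in wild-type ZEB1 and 137 in empty vector. The order was the same as for CYR61, with more distance between the ZEB1 libraries. Set over empty vector, CTGF had a ratio of 1.41 (1.35 to 1.46) in ZEB1 K80R and 1.56 (1.5 to 1.61) in wild-type ZEB1, and the ratio of ZEB1 K80R to wild-type ZEB1 was 0.903 (0.872 to 0.935). At a common sum without mitochondrial genes this last ratio, as FPKM + 1, was 1.01, and the ratios to empty vector were 1.48 for ZEB1 K80R and 1.47 for wild-type ZEB1. CYR61 and CTGF are among the 2594 shortest genes, where differences from empty vector as high were seen for 8.17% and 15.3% in ZEB1 K80R and for 12.5% and 17.2% in wild-type ZEB1.

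The balance of the pair differed between libraries. CYR61 exceeded CTGF by 1.54 times (1.49 to 1.59) in ZEB1 K80R, 1.41 times (1.37 to 1.46) in wild-type ZEB1 and 1.28 times (1.23 to 1.33) in empty vector, ratios within a library that no scaling alters. Together they made up 72.4% of the summed FPKM of the 10 genes in ZEB1 K80R, 73.6% in wild-type ZEB1 and 59.7% in empty vector.

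The size of the CYR61 and CTGF differences from empty vector depended on how the libraries were scaled. The ratios themselves stayed above 1 under the 3 other scalings run. At a common sum of FPKM the ratio to empty vector was 1.25 for CYR61 in both ZEB1 libraries, and for CTGF 1.04 in ZEB1 K80R and 1.13 in wild-type ZEB1. No interval is given at this scaling, and the 1.04 of CTGF lies close to 1, so its direction there is not settled. That scaling moved the median difference of log2(value + 1) of all genes from empty vector to −0.39 in ZEB1 K80R and −0.40 in wild-type ZEB1, where in the deposited values it was 0.01 and 0.02. Relative to the median gene at a common sum, CYR61 still differed by 0.70 in ZEB1 K80R and 0.72 in wild-type ZEB1 on the log2 scale, and CTGF by 0.44 and 0.58.

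ANKRD1 (ENSG00000148677; chromosome 10, 90912096 to 90921276), a nuclear ankyrin-repeat protein and common readout of YAP activity, did not show the difference seen for CYR61 and CTGF. It had 16.4 FPKM in ZEB1 K80R, 16.6 in wild-type ZEB1 and 17.5 in empty vector, from 433, 453 and 551 reads. Set over empty vector, its ratio was 0.937 (0.824 to 1.06) in ZEB1 K80R and 0.947 (0.834 to 1.07) in wild-type ZEB1, and between ZEB1 K80R and wild-type ZEB1 it was 0.990 (0.866 to 1.13). All 3 intervals held 1, and in both comparisons with empty vector the upper bound lay below the lower bound of CTGF and CYR61. CYR61 exceeded ANKRD1 by 18.1 times in ZEB1 K80R, 18.2 times in wild-type ZEB1 and 10.03 times in empty vector.

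The feedback genes AMOTL2 and LATS2 stood slightly above their empty vector level in both ZEB1 libraries, short of 1.5-fold, and below it when the libraries were scaled to a common sum of FPKM. AMOTL2 (ENSG00000114019; chromosome 3, 134355874 to 134375479), an angiomotin-family scaffold that binds YAP, had 32.8 FPKM in ZEB1 K80R, 32.4 in wild-type ZEB1 and 30.5 in empty vector. LATS2 (ENSG00000150457; chromosome 13, 20973032 to 21061547), a kinase that phosphorylates YAP and TAZ, had 8.36 FPKM in ZEB1 K80R, 8.77 in wild-type ZEB1 and 7.32 in empty vector. For each gene the ZEB1 libraries differed by little.

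The ratio of AMOTL2 to empty vector was 1.07 (1.02 to 1.13) for ZEB1 K80R and 1.06 (1.01 to 1.12) for wild-type ZEB1, and that of LATS2 was 1.14 (1.02 to 1.28) and 1.2 (1.07 to 1.34) in the same order. All 4 of these ratios were below 1 at a common sum of FPKM. Relative to the median gene at that scaling, AMOTL2 was still higher by 0.05 in ZEB1 K80R and 0.03 in wild-type ZEB1 on the log2 scale, and LATS2 by 0.14 and 0.21. Between ZEB1 K80R and wild-type ZEB1 the ratio was 1.01 (0.959 to 1.07) for AMOTL2 and 0.953 (0.853 to 1.06) for LATS2. LATS2 exceeded its paralog LATS1 by 1.55 times (1.38 to 1.73) in ZEB1 K80R, 2.09 times (1.86 to 2.35) in wild-type ZEB1 and 1.71 times (1.53 to 1.92) in empty vector. LATS1 belongs to the longest genes and LATS2 does not, and the part of length in this ratio was not tested.

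AJUBA (ENSG00000129474; chromosome 14, 22971174 to 22982642) was lower in both ZEB1 libraries. It had 20.9 FPKM in ZEB1 K80R, 23.5 in wild-type ZEB1 and 30.2 in empty vector, the 3 libraries lying apart. Set over empty vector, its ratio was 0.691 (0.650 to 0.734) in ZEB1 K80R and 0.777 (0.733 to 0.823) in wild-type ZEB1, and the ratio of ZEB1 K80R to wild-type ZEB1 was 0.890 (0.833 to 0.950). It was the lowest of the 10 ratios to empty vector in ZEB1 K80R, where 12.9% of the 10372 genes had a difference as low.

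Counted together, none of the 10 genes reached a 1.5-fold ratio of FPKM + 1 between ZEB1 K80R and wild-type ZEB1, where 1.33% of the 10372 genes were higher and 3.87% lower by that rule. For wild-type ZEB1 against empty vector 2 of 10 were higher (CYR61 and CTGF) and 0 lower, beside 12.0% higher and 7.63% lower among all genes. For ZEB1 K80R against empty vector 1 of 10 was higher (CYR61) and 0 lower, beside 9.68% and 10.3%. At counts this small the shares of the 10 genes are not set apart from the background.

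On the log2(FPKM + 1) scale the median difference over the 10 genes was −0.02 for ZEB1 K80R against wild-type ZEB1, where it was −0.03 over all 10372 genes. It was 0.00 beside 0.02 for wild-type ZEB1 against empty vector, and 0.04 beside 0.01 for ZEB1 K80R against empty vector. The 10 genes as a set were thus centred where the libraries as a whole were centred, with individual genes on both sides.

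Counting intervals of the ratio excluded 1 for 4 of 10 genes between ZEB1 K80R and wild-type ZEB1, namely TEAD1 above and WWTR1, AJUBA and CTGF below, where this held for 59.2% of all genes. Against empty vector they excluded 1 for 9 of 10 in wild-type ZEB1 and 8 of 10 in ZEB1 K80R, where the background was 72.5% and 72.2%. A counting interval compares a pair of libraries and not the conditions.

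**Figure D3:**
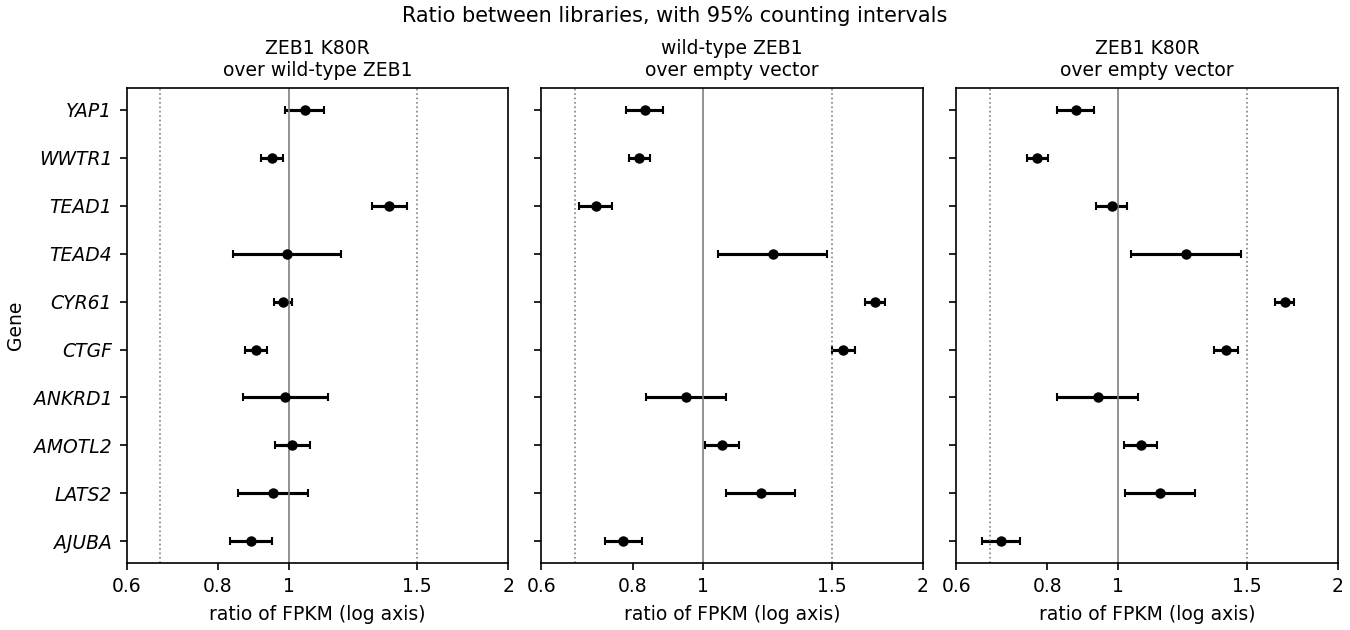
Ratio of FPKM (x axis, log scale) of each of the 10 genes (y axis) for ZEB1 K80R over wild-type ZEB1, wild-type ZEB1 over empty vector and ZEB1 K80R over empty vector; bars are exact 95% counting intervals, the solid line marks 1 and dotted lines mark 1.5-fold either way. Between the ZEB1 libraries TEAD1, at 1.37, stands apart, and against empty vector CYR61 and CTGF lie at or near 1.5-fold and above.

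**Figure D4:**
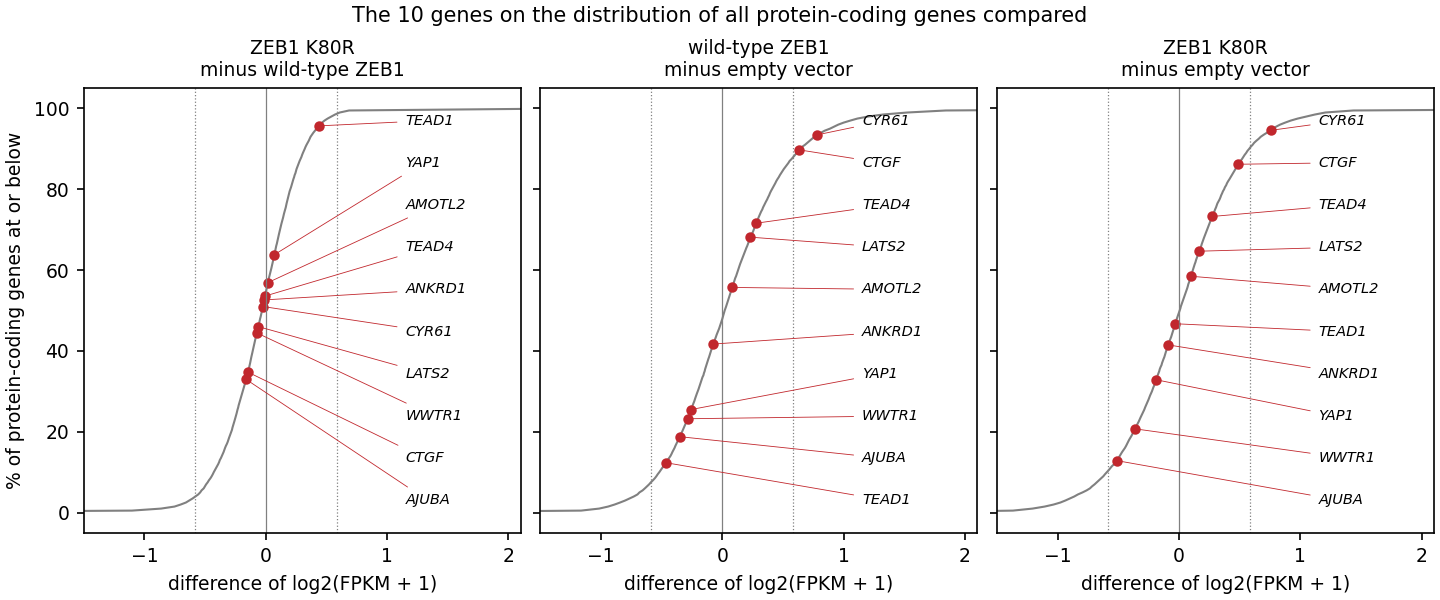
Share of the 10372 protein-coding genes (y axis, percent) at or below each difference of log2(FPKM + 1) (x axis) in the 3 comparisons, as a grey curve, with the 10 genes marked on it and 1.5-fold either way as dotted lines. CYR61 and CTGF lie toward the upper end in the comparisons with empty vector, and TEAD1 near it for ZEB1 K80R minus wild-type ZEB1. Toward the lower end lie TEAD1 for wild-type ZEB1 minus empty vector, at 12.4% of genes, and AJUBA for ZEB1 K80R minus empty vector, at 12.9%. The other points lie between.

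A published YAP and TAZ target signature of 22 genes, which holds 5 of the 10 genes, gave a mixed picture. Of its 22 genes 19 had a mean of at least 1 FPKM. For wild-type ZEB1 against empty vector 6 were at least 1.5-fold higher and 1 was lower, leaving 12 short of 1.5-fold, and the median difference was 0.08, beside 12.0% higher and 7.63% lower among all genes. For ZEB1 K80R against empty vector 5 were higher and 1 was lower, leaving 13 short of 1.5-fold, and the median was 0.17, beside 9.68% and 10.3%. Between ZEB1 K80R and wild-type ZEB1 1 was higher and 1 was lower, leaving 17, and the median was 0.02, beside 1.33% and 3.87%. Without the 5 genes already described, 14 were compared, with 4 higher and 1 lower against empty vector in each ZEB1 library. TGFB2, which passed the filter only through the ZEB1 libraries, is among the higher genes in all these counts against empty vector. With no filter, all 22 were compared, with 6 higher and 1 lower in wild-type ZEB1 and 5 higher and 1 lower in ZEB1 K80R. At a common sum of FPKM 20 signature genes were compared. Of these, 2 were higher and 5 lower in ZEB1 K80R than in empty vector, and 2 higher and 6 lower in wild-type ZEB1. Among all 12047 protein-coding genes compared at that scaling, 635 were higher and 4197 lower in ZEB1 K80R, and 737 and 4329 in wild-type ZEB1. The genes as a whole thus moved the same way.

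The coagulation receptor F3 (tissue factor) was the signature gene with the highest ratio of FPKM + 1 to empty vector. F3 had 6.84 FPKM in ZEB1 K80R, 7.82 in wild-type ZEB1 and 3.24 in empty vector, which gave ratios of 2.11 (1.72 to 2.60) and 2.41 (1.98 to 2.95) to empty vector. ASAP1, an Arf GTPase-activating protein, had 17.8 FPKM in ZEB1 K80R, 17.4 in wild-type ZEB1 and 9.59 in empty vector. TGFB2, a TGF-β ligand, had 1.56, 1.24 and 0.452 FPKM in the same order, and so passed the filter through the ZEB1 libraries. In these 3 genes, as in CYR61, both ZEB1 libraries lay above the empty vector library and close to each other.

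GADD45A, a stress-induced regulator of growth arrest, went the other way, with 58.6 FPKM in ZEB1 K80R, 76.1 in wild-type ZEB1 and 122 in empty vector. NUAK2, a kinase of the AMPK family, was higher in the wild-type ZEB1 library alone, with 2.38 FPKM in ZEB1 K80R, 4.97 in wild-type ZEB1 and 2.78 in empty vector, and its ratio of ZEB1 K80R to wild-type ZEB1 was 0.478 (0.378 to 0.603). The receptor kinase AXL, the most abundant of the signature genes after CYR61 and CTGF by mean level, had 151 FPKM in ZEB1 K80R, 146 in wild-type ZEB1 and 173 in empty vector. The signature thus held genes that were higher, lower and within range in the same libraries.

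RefSeq windows were found for 16 of the 22 signature genes, 18 windows in all. Of these genes 9 held GGAATG in at least 1 window, among them CTGF, ANKRD1, AMOTL2 and LATS2, whose matches are shown above. The 14% given for all RefSeq windows is a share of windows and not of genes, so it cannot be set directly beside this count. Genes with several windows have more chances of a match.

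Among 14 other genes reported as YAP and TAZ targets, 13 were compared. For wild-type ZEB1 against empty vector 4 were higher and 1 lower (median 0.26), for ZEB1 K80R against empty vector 4 were higher and 1 lower (median 0.11), and between ZEB1 K80R and wild-type ZEB1 1 was higher and 1 lower (median 0.01). The shares over all genes are those given for the signature, 12.0% and 7.63%, 9.68% and 10.3%, and 1.33% and 3.87%. Scaled to a common sum of FPKM, 1 was higher and 1 lower in ZEB1 K80R than in empty vector, and 2 were higher and 5 lower in wild-type ZEB1. Of all 12047 genes at that scaling, 635 were higher and 4197 lower in ZEB1 K80R, and 737 and 4329 in wild-type ZEB1. INHBA, the activin A subunit, had 2.87 FPKM in ZEB1 K80R, 11.0 in wild-type ZEB1 and 2.46 in empty vector. Its ratio of ZEB1 K80R to wild-type ZEB1 was 0.261 (0.230 to 0.296), so it was high in wild-type ZEB1 alone.

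THBS1, the matrix protein thrombospondin-1, had 30.3 FPKM in ZEB1 K80R, 19.2 in wild-type ZEB1 and 17.8 in empty vector, and was the gene of that list that was higher in ZEB1 K80R than in wild-type ZEB1, by 1.58 (1.5 to 1.66). It too belongs to the longest genes, and the part of length in this ratio was not tested. FSTL1, a secreted follistatin-like glycoprotein, had 31.1 FPKM in ZEB1 K80R, 33.0 in wild-type ZEB1 and 20.1 in empty vector. EDN1, the endothelin-1 precursor, had 2.14, 1.82 and 0.836 FPKM in the same order, from 58, 51 and 27 reads, and like TGFB2 passed the filter through the ZEB1 libraries. It is counted among the higher genes of this list in both comparisons with empty vector. BIRC5, the mitotic survival protein survivin, was lower, with 23.3 FPKM in ZEB1 K80R, 24.8 in wild-type ZEB1 and 46.5 in empty vector. INHBA and TGFB2 also answer to other pathways, and the list does not separate these.

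**Figure D5:**
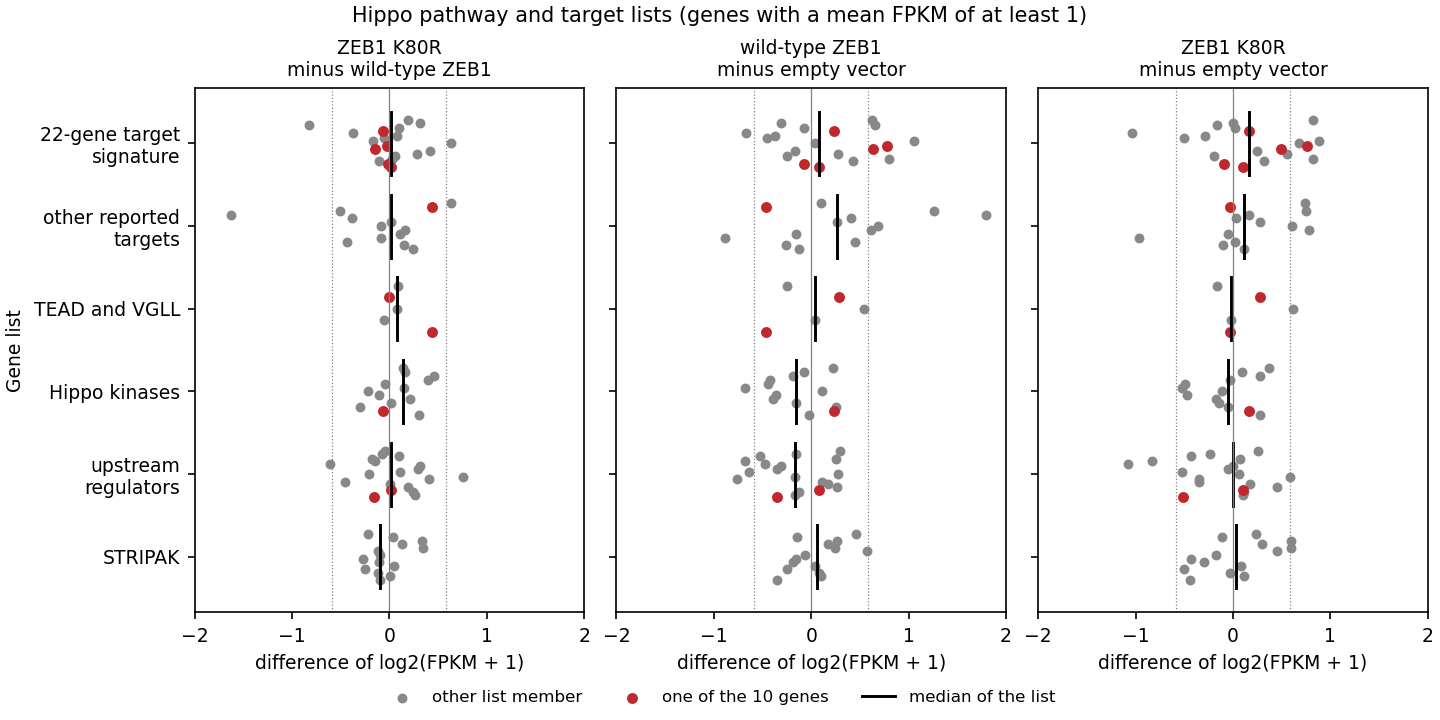
Difference of log2(FPKM + 1) (x axis) in the 3 comparisons for the genes of 6 lists of the Hippo pathway and its targets (y axis) with a mean of at least 1 FPKM; each dot is a gene, red dots are genes of the 10, black bars are list medians and dotted lines mark 1.5-fold. Target lists scatter to both sides, with INHBA the point farthest right for wild-type ZEB1 minus empty vector among the other reported targets, and among the kinases and adaptors STK38 alone passes 1.5-fold, for wild-type ZEB1 minus empty vector.

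Among the genes that act upstream of YAP and TAZ, all 13 Hippo kinases and adaptors were compared. For wild-type ZEB1 against empty vector 0 were higher and 1 was lower (median −0.15), where 12.0% of all genes were higher and 7.63% lower. None passed 1.5-fold for ZEB1 K80R against empty vector (median −0.05), beside 9.68% higher and 10.3% lower among all genes. None did against wild-type ZEB1 (median 0.14), beside 1.33% and 3.87%, where the median of all genes was −0.03. Several of the 13, LATS1 and STK4 among them, belong to the longest genes, whose median there was 0.11. The part of length was not tested. The gene counted as lower was STK38 (NDR1), a relative of the LATS kinases. It had 8.80 FPKM in ZEB1 K80R, 7.80 in wild-type ZEB1 and 13.1 in empty vector. STK4, which encodes MST1, had 10.4 FPKM in ZEB1 K80R, 7.67 in wild-type ZEB1 and 10.6 in empty vector. Its order of libraries was that of TEAD1. Scaled to a common sum of FPKM, 4 of the 13 were lower in ZEB1 K80R and 7 in wild-type ZEB1 than in empty vector. Of all 12047 genes at that scaling, 4197 were lower in ZEB1 K80R and 4329 in wild-type ZEB1.

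Of 22 upstream regulators and inhibitors, AMOTL2 and AJUBA among them, 19 were compared. For wild-type ZEB1 against empty vector 0 were higher and 3 lower (median −0.16), for ZEB1 K80R against empty vector 1 was higher and 2 lower (median 0.00), and between ZEB1 K80R and wild-type ZEB1 1 was higher and 1 lower (median 0.02), beside the same shares over all genes. Scaled to a common sum of FPKM, 0 were higher and 9 of 21 lower in ZEB1 K80R than in empty vector, and 0 higher and 14 lower in wild-type ZEB1. Of all 12047 genes at that scaling, 635 were higher and 4197 lower in ZEB1 K80R, and 737 and 4329 in wild-type ZEB1. The giant cadherin FAT1 had 31.6 FPKM in ZEB1 K80R, 18.4 in wild-type ZEB1 and 20.7 in empty vector, and its ratio of ZEB1 K80R to wild-type ZEB1 was 1.72 (1.65 to 1.79). FAT1 belongs to the longest genes, whose median difference between these libraries was 0.11, and the part of length was not tested. The scaffold RASSF1 had 2.0 FPKM in ZEB1 K80R, 3.56 in wild-type ZEB1 and 5.35 in empty vector. The polarity protein SCRIB had 36.2 FPKM in ZEB1 K80R, 40.2 in wild-type ZEB1 and 65.0 in empty vector. DLG5, another polarity scaffold, had 9.24, 6.71 and 12.05 FPKM, and LIMD1, a LIM protein of the AJUBA family, had 4.58, 4.17 and 7.03 FPKM, in the same order. AJUBA and its relative LIMD1 were thus both lower in the ZEB1 libraries than in empty vector.

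Genes that overlap the 10 on the genome had few reads. Of 14 such genes over 7 of the 10, 9 had 0 reads in all libraries and the most was 22 reads, for WWTR1-IT1 in wild-type ZEB1. Antisense or other opposite-strand genes overlap 5 of the 10, and without a stated strand setting their reads cannot be told from those of the gene.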

How the data were processed

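The authors deposited 1 table of FPKM values for 58735 genes in 3 libraries, with gene lengths and coordinates and no counts. CASAVA, hg38, featureCounts 1.5.0-p3 and DESeq2 1.20.0 are listed, without their roles, in the submitters' processing notes. Which aligner, annotation and strand option were used is not given in these sources. All identifiers, and the coordinates of the 10 genes, were found in GENCODE release 29 (GRCh38). Multiplied by gene length, FPKM came out as whole multiples of 1 step per library for 100% of the genes above 0 (tolerance 0.05 reads), which gave reads, used for exact Clopper-Pearson and Poisson intervals only. FPKM hold a library factor of 0.988 (ZEB1 K80R), 0.963 (wild-type ZEB1) and 1.08 (empty vector) relative to the read sums. A count of 0 allows up to 3 reads, or 0.113, 0.109 and 0.0944 FPKM for a gene of 2 kb in the same order.

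Groups came from the genotype label. No test was possible with 1 library in each group. Protein-coding genes that averaged 1 FPKM or more were compared on log2(FPKM + 1), a scale that understates differences of low genes, and called at 1.5-fold. The 10 genes and the gene lists were chosen with earlier results of these data known. The text names the 10 genes, up to 6 called genes per list by largest difference, ZEB1, other CCN genes, overlapping genes and genes of like pattern. STK4, TEAD2, LATS1 and AXL were named after their values were seen. Python 3.11.15, pandas 2.3.3 and scipy 1.17.1 were used, and the intervals were checked on simulated counts. Some genes of the lists are not reported here by name.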

Additional observations from a re-analysis of the deposited data

How the results depend on the processing

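No paired analysis was possible because each group had 1 library, and leaving out a library would leave no comparison. At a common sum of FPKM the count of the 10 genes past 1.5-fold was 4, all lower, for wild-type ZEB1 against empty vector and 3, all lower, for ZEB1 K80R against empty vector, (YAP1, WWTR1 and AJUBA in both, and TEAD1 in the first), with medians of −0.45 and −0.40, and CYR61 and CTGF were no longer past 1.5-fold; this scaling moved the median of all genes nearly as far. At a common sum without mitochondrially encoded genes 1 gene, TEAD1, passed 1.5-fold for ZEB1 K80R against wild-type ZEB1, with a median of 0.13 over the 10, and 1, CYR61, did for wild-type ZEB1 against empty vector, since CTGF moved to 1.47. At 2-fold 0 of the 10 passed in any comparison. The median-ratio scaling, pseudocounts of 0.1 and 5 and filters of none or 5 FPKM left the counts of the 10 as they were.

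Counts over all protein-coding genes at 1.5-fold were 539 for ZEB1 K80R against wild-type ZEB1 (138 higher, 401 lower), 2034 for wild-type ZEB1 against empty vector (1243 and 791) and 2073 for ZEB1 K80R against empty vector (1004 and 1069). In that order of comparisons they were 1125 (487 and 638), 5066 (737 and 4329) and 4832 (635 and 4197) at a common sum, 1556 (1125 and 431), 3508 (1738 and 1770) and 3569 (2239 and 1330) without mitochondrial genes, 159, 917 and 917 with a pseudocount of 5, and 78, 483 and 470 at 2-fold. For ZEB1 K80R against wild-type ZEB1 they were 983 with a pseudocount of 0.1 and 345 with a filter of 5 FPKM. The cause of these shifts was not tested. The list counts at other settings were added after seeing the data. TEAD4 and ANKRD1, with 261 to 551 reads a library, have the widest intervals.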

Other observations

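The STRIPAK complex joins the phosphatase PP2A to the MST kinases and counteracts Hippo signalling. All 14 of its genes were compared, and 0 passed 1.5-fold for ZEB1 K80R against wild-type ZEB1 (median −0.10; 1.33% of all genes were higher and 3.87% lower) or for wild-type ZEB1 against empty vector (median 0.06; 12.0% and 7.63%). For ZEB1 K80R against empty vector 2 were higher and 0 lower (median 0.03), beside 9.68% and 10.3% of all genes. Among them was STRN, the striatin scaffold, with 6.70 FPKM in ZEB1 K80R, 5.12 in wild-type ZEB1 and 4.11 in empty vector. At a common sum of FPKM 5 of the 14 were lower in each ZEB1 library than in empty vector and none was higher. Of all 12047 genes at that scaling, 635 were higher and 4197 lower in ZEB1 K80R, and 737 and 4329 in wild-type ZEB1. The STRIPAK counts of lower genes are thus not set apart from the background.

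Of the other CCN genes, relatives of CYR61 and CTGF, only NOV (CCN3) reached a mean of 1 FPKM, with 6.63 FPKM in ZEB1 K80R, 5.50 in wild-type ZEB1 and 5.72 in empty vector. WISP1 had 13 reads in ZEB1 K80R, 46 in wild-type ZEB1 and 22 in empty vector. WISP2 had 3, 0 and 0 reads and WISP3 had 6, 1 and 0 reads in the same order, at or near the limit that a count of 0 allows.

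Likeness of pattern over the 3 libraries was computed for YAP1, WWTR1, CYR61 and CTGF. Among 4112 other protein-coding genes with a mean of at least 10 FPKM, 126 lay within a distance of 0.1 of YAP1 in the pair of log2(FPKM + 1) differences from empty vector, 101 of WWTR1, 25 of CYR61 and 51 of CTGF. The nearest were RNF144A, USP12 and SNX14 for YAP1, SAE1, FAF1 and NPEPPS for WWTR1, CKAP2L, PRKCSH and SSX3 for CYR61, and SHC1, SQLE and SLC26A6 for CTGF.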
